A study of Mus musculus with 30 samples.

Results

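The genes described here are 10 regulators of entry into and exit from mitosis: Ccna2, Ccnb1, Ccnb2, Cdk1, Cdc25b, Cdc25c, Plk1, Aurka, Cdc20 and Ube2c. They form a given list of genes, and each was found in the deposited table by its mouse Ensembl identifier. All 10 of them were present among 78334 gene identifiers, and all 10 passed the filter on low counts in both sequencing runs (15350 genes tested in run 2 and 15103 in run 3).

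The libraries were made from cultured cells labelled as wild-type mouse aortic smooth muscle, in a study of the long noncoding RNA CASC15 and vascular cell growth. The culture text speaks of mouse and of rat cells, and every library is labelled mouse. All cells had been held 48 h without serum and had been transfected at least 24 h before the endpoint. Run 2 held 4 groups of cells without further treatment: 2 libraries with a control GapmeR (an antisense oligonucleotide that directs RNase H to its target RNA), 2 labelled as knockdown of total CASC15, 3 that received a control plasmid and 3 that overexpressed total CASC15. In run 3 there were 5 groups, each with 4 libraries. They were cells with the knockdown control, left untreated, given angiotensin II (10 ng/ml, 24 h) or given PDGF-BB (10 to 30 ng/ml, 24 h), and cells with knockdown of long CASC15, left untreated or given angiotensin II. No group received PDGF-BB together with knockdown. The labels also name a batch, P16 to P19, and each batch holds at most 1 library of each group. They do not say what P stands for or whether libraries came from separate cultures, so p-values measure the spread between these libraries. In some titles the number after CASC rises from replicate to replicate, so the group was read from the library name instead.

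Entry into mitosis is driven by the kinase Cdk1, which acts only when bound to a cyclin. Cyclin A2 (Ccna2) rises first, in S phase, and the B-type cyclins (Ccnb1 and Ccnb2) follow in G2. Cdk1 is held inactive by the kinases Wee1 and Pkmyt1 and is switched on by the CDC25 phosphatases (Cdc25b and Cdc25c), while the kinases Aurka and Plk1 help to start this switch. Exit requires destruction of the cyclins by the anaphase-promoting complex (APC/C), a ubiquitin ligase that works with the activator Cdc20 and the ubiquitin-conjugating enzyme Ube2c. In proliferating cells the mRNAs of most of these genes peak in G2 and mitosis, so in a mixed culture their level also reflects how many cells cycle. In RNA from a whole culture, fewer cycling cells and less RNA per cell cannot be told apart.

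Promoters of this gene class are known for a hexamer of the cell-cycle genes homology region (CHR), read by the DREAM and MuvB complexes, often with boxes for the factor NF-Y nearby. The sequences of 6 of the 8 genes with a matched promoter are shown so that the motif matches can be read in place: 4 with a hexamer and 2 or more CCAAT, Plk1 with hexamers and 1 CCAAT, and Cdc25b with 1 CCAAT and no hexamer. No link between these letters and the levels was tested. They come from RefSeq on GRCm38.p6 and run 5′ to 3′ from 120 bases before the annotated start to 25 after it. The windows lie at chr13:100786462-100786606 (minus strand), chr9:70421530-70421674 (minus), chr10:69352888-69353032 (minus), chr7:122159315-122159459 (plus), chr4:118437319-118437463 (minus) and chr2:131186828-131186972 (plus). Capitals mark TTTGAA or TTTAAA, and CCAAT, each on either strand, where TTCAAA and ATTGG are the same motifs read from the other strand.
Ccnb1: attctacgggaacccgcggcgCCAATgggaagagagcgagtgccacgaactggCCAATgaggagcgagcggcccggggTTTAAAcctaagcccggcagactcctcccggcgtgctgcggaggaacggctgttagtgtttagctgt
Ccnb2: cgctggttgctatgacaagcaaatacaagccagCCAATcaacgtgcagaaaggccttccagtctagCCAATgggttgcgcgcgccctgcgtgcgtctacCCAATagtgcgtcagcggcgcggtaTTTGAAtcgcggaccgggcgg
Cdk1: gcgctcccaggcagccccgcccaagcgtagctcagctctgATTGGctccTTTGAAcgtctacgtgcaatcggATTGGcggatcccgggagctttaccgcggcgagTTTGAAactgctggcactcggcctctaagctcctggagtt
Plk1: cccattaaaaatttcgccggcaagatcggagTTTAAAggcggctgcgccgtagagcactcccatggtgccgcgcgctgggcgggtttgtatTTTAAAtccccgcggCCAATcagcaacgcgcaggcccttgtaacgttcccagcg
Cdc20: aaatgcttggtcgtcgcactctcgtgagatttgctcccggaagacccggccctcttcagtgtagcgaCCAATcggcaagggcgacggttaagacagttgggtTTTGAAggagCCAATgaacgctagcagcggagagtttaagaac
Cdc25b: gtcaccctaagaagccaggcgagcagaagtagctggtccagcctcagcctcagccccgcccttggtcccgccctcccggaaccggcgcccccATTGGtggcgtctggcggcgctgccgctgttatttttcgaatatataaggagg

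RefSeq promoters of 300 bases (250 before the start and 50 after) were matched for 8 of the 10 regulators, all but Ccna2 and Cdc25c. TTTGAA or TTTAAA, searched on both strands, was present in 7 of these 8, against 27.6% of 32851 promoters of 27025 genes. CCAAT was present in all 8, against 37.4%, and 2 or more copies in 6, against 11.7%. A hexamer together with 2 or more CCAAT was found in 6 of the 8 and in 3.13% of all promoters. Cdc25b held neither hexamer and 1 CCAAT. Plk1, with TTTAAA at positions -89 and -29 from the start, held 1 CCAAT, at -14. In Ccnb1 the hexamer starts at -42, in Cdc20 at -18 and in Ube2c at -29. TTTAAA and TTTGAA cannot overlap as the same letters, and these matches describe the sequences without showing that any factor bound them.

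**Figure D1:**
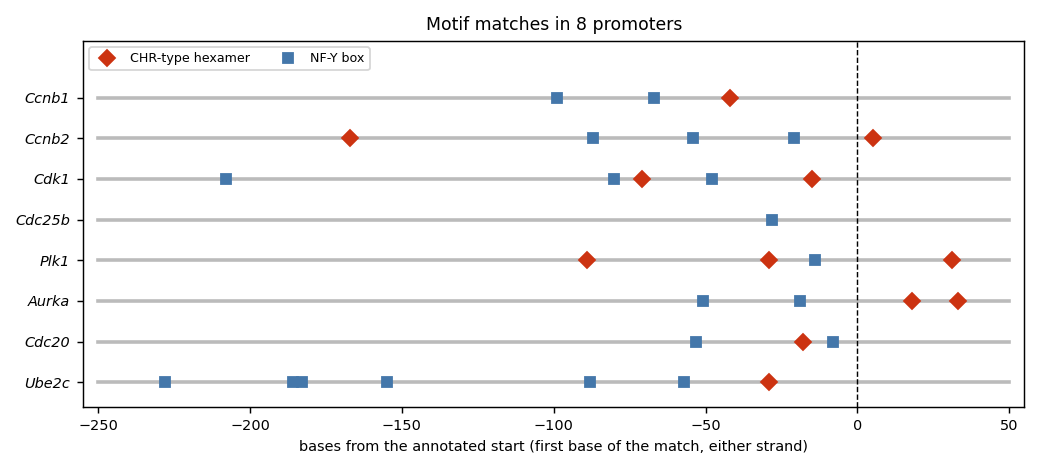
Positions of the CHR-type hexamers (red diamonds) and NF-Y boxes (blue squares) on either strand in the 300-base promoters of 8 regulators, in bases from the annotated start (dashed line). Cdc25b carries 1 NF-Y box and no hexamer, and the other 7 carry at least 1 hexamer.

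Total expected counts per library were 18007199 to 21881959 in run 2 and 15771490 to 30362047 in run 3. The gene 2610307P16Rik, read here as mouse CASC15 from its place beside Sox4, had 591 to 849 CPM with overexpression against 3.94 to 8.89 with the control plasmid. It had 2.22 to 3.63 CPM in untreated long knockdown against 4.99 to 6.02 in its controls, and 2.69 to 3.93 against 4.56 to 6.13 under angiotensin II. In control cells given PDGF-BB, without knockdown, it had 2.8 to 4.59 CPM, also below the untreated controls. In the libraries labelled total knockdown it had 8.45 to 10.0 CPM against 6.63 to 7.86 in their controls, which goes against that label. CPM are counts scaled to the library total for this gene, and to the library total times its TMM factor (0.924 to 1.05) for all other genes. Of 8 smooth muscle markers, Cald1 had 417 to 855 CPM over the 30 libraries, Acta2 96.5 to 441, Smtn 42.2 to 103 and Myl9 1.95 to 22.7. Myh11 had 0 to 6.67 CPM, Tagln 0.234 to 3.45, Lmod1 0.156 to 1.77 and Cnn1 0 to 0.224, so the defining contractile marker Cnn1 was at or near 0, and Myh11 was at 0 in at least 1 library. Of 5 fibroblast markers, Col1a1, Dcn, Pi16, Pdgfra and Lum had medians of 1975, 1485, 20.0, 18.9 and 1.14 CPM over the 30 libraries. The summed level of 6 endothelial markers was 6.02 to 10.1 CPM in the labelled total knockdown and 0.357 to 4.90 in the other groups. The defining endothelial marker Cdh5 had at most 0.0633 CPM in any library. The summed level of 4 epithelial markers was at least 35.4 CPM in every library, nearly all of it Cdh1, while the defining marker Epcam had at most 0.441 CPM.

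The levels of the cyclins and Cdk1 varied widely with the group. Ccnb1 (ENSMUSG00000041431.17) had 10.6, 7.91, 11.5 and 21.6 CPM in the untreated controls of run 3, in batches P16 to P19. In the same order it had 1.07, 1.67, 2.45 and 12.7 CPM with long knockdown, and 160, 153, 157 and 155 CPM under PDGF-BB. The PDGF-BB libraries stand above every other library and close together, and P19 is the highest of the controls and of the knockdown libraries. Ccnb2 (ENSMUSG00000032218.8), the other B-type cyclin, had 6.93, 3.90, 5.44 and 12.1 CPM in those controls, 0.374, 0.723, 1.09 and 5.63 with long knockdown and 73.2 to 82.4 under PDGF-BB. The lowest of these knockdown values rests on 8 counts. Ccna2 (ENSMUSG00000027715.10), the S and G2 phase cyclin, had 8.82, 5.31, 8.68 and 17.8 CPM in the controls and 1.96, 1.39, 1.69 and 10.2 with long knockdown. Cdk1 (ENSMUSG00000019942.14), the kinase itself, had 14.5, 10.9, 12.8 and 24.5 CPM in the controls and 5.89, 5.34, 5.87 and 15.9 with long knockdown. For all 4 genes the P19 knockdown library overlaps the controls, while the other knockdown libraries lie below every control.

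The CDC25 phosphatases behaved unlike each other. Cdc25c (ENSMUSG00000044201.11) had 2.27, 1.46, 2.59 and 3.12 CPM in the untreated controls of run 3, 0.560, 0.223, 0.217 and 1.33 with long knockdown and 27.7 to 31.8 under PDGF-BB, so the knockdown libraries lie below all controls. Cdc25b (ENSMUSG00000027330.17) had 23.9, 26.3, 26.1 and 23.0 CPM in those controls and 24.5, 28.2, 28.3 and 22.1 with long knockdown, and the groups overlap. Over the 26 libraries outside PDGF-BB it ranged from 21.8 to 38.2 CPM, and under PDGF-BB from 69.8 to 88.5. Per kilobase of exon, Cdc25b was the most abundant of the 10 genes in 5 of the 9 groups (6.67 ± 0.433 CPM per kb in the untreated controls of run 3, SD, n = 4), and Cdc25c was the least abundant in all 9. The ratio of Cdc25b to Cdc25c per kilobase was 9.76 to 23.8 in those controls, 21.9 to 172 with long knockdown and 3.32 to 3.89 under PDGF-BB. The high ratios rest on low Cdc25c counts, at levels down to 0.217 CPM in libraries of 17276145 to 20716182 counts.

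The mitotic kinases and the exit genes followed the cyclins. Plk1 (ENSMUSG00000030867.8), which phosphorylates the CDC25 phosphatases and Wee1, had 3.95, 2.76, 4.34 and 7.21 CPM in the untreated controls of run 3, 2.01, 2.11, 1.41 and 4.46 with long knockdown and 59.1 to 62.8 under PDGF-BB. Aurka (ENSMUSG00000027496.16), a centrosome and spindle kinase that activates Plk1, had 2.98, 2.76, 4.19 and 7.11 CPM in the controls and 1.07, 1.56, 1.52 and 4.67 with long knockdown. For both kinases the P16 to P18 knockdown libraries lie below every control and P19 does not. Cdc20 (ENSMUSG00000006398.16), the APC/C activator at anaphase, had 5.50, 4.93, 8.53 and 11.6 CPM in the controls and 2.76, 1.50, 3.04 and 8.92 with long knockdown. Ube2c (ENSMUSG00000001403.14), the ubiquitin-conjugating enzyme that works with the APC/C to mark its substrates, had 3.95, 4.11, 4.74 and 9.07 CPM in the controls and 0.327, 0.501, 0.544 and 5.57 with long knockdown. The 3 low Ube2c libraries hold 7, 9 and 10 counts, and a P17 library with long knockdown and angiotensin II holds 1. The ratio of the exit genes differed between runs: per kilobase, Cdc20 was 0.608 to 0.704 of Ube2c in the antisense controls of run 2 and 1.67 to 2.51 of it in those of run 3. In these 2 groups Ube2c had 6.19 ± 1.07 CPM (SD, n = 2) and 5.47 ± 2.43 CPM (SD, n = 4), and Cdc20 2.95 ± 0.813 and 7.64 ± 3.08 CPM, and the runs were scaled apart.

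**Figure D2:**
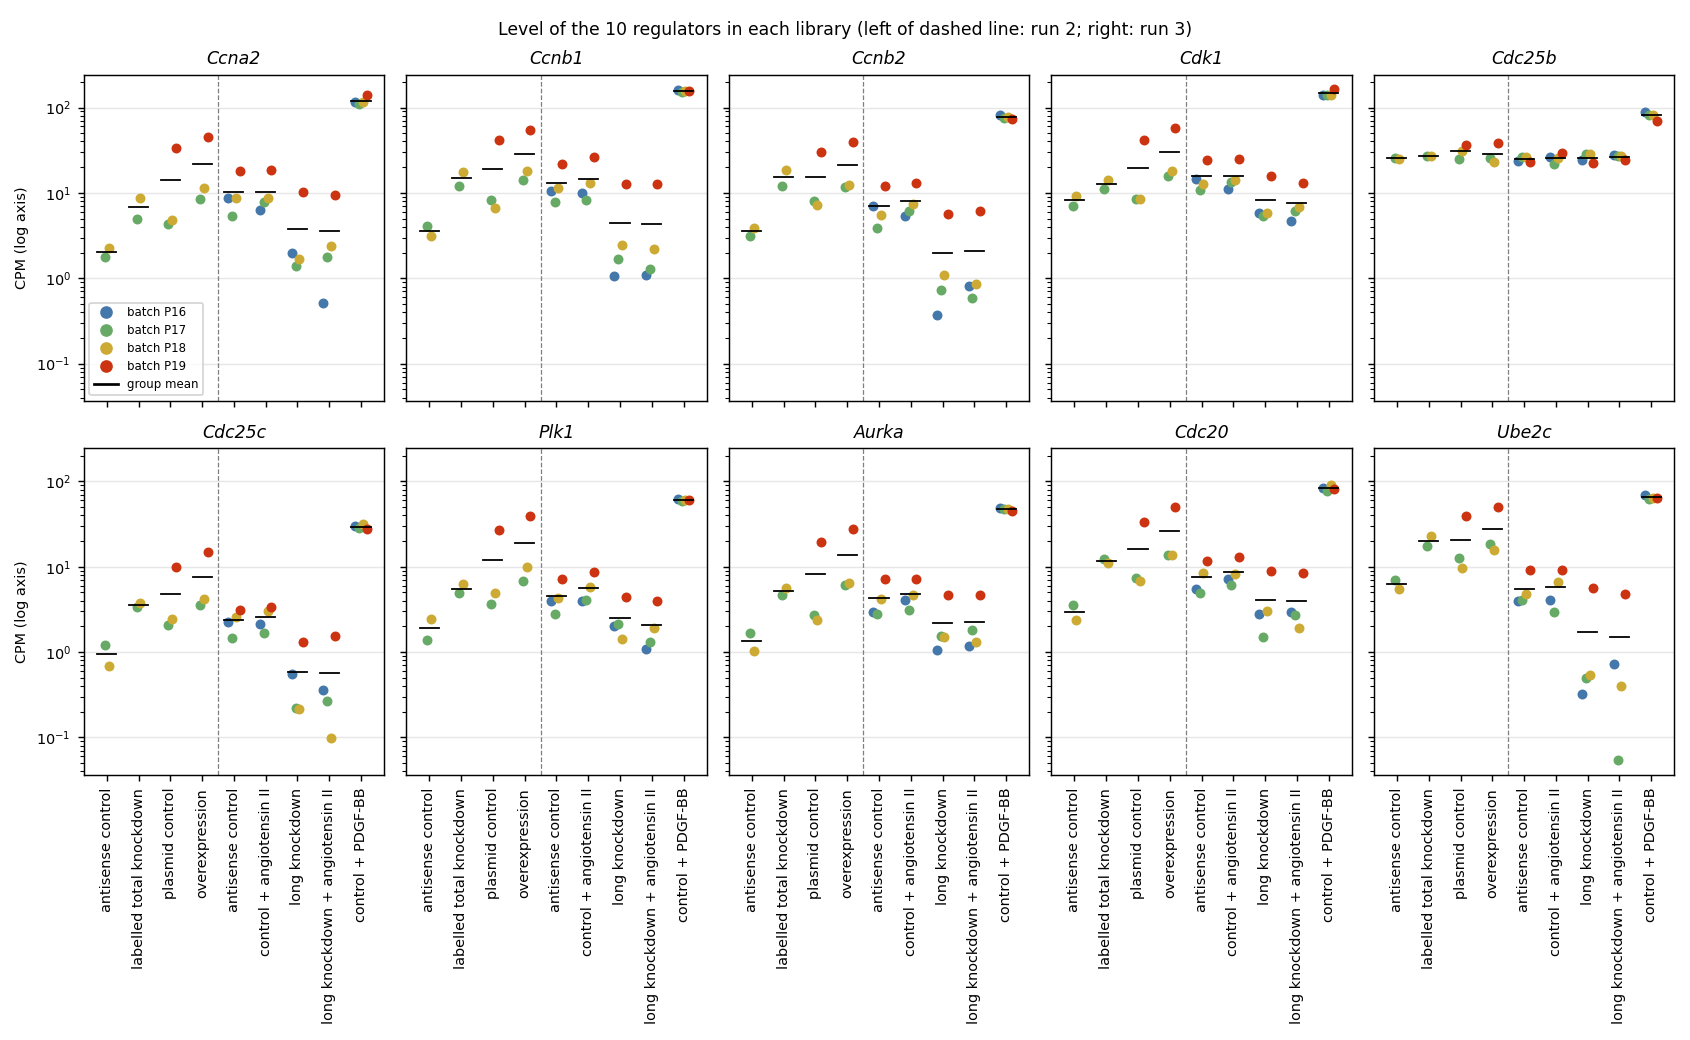
CPM on a log axis for each library in the 9 groups, coloured by batch, with the arithmetic group mean as a bar. P19 (red) is highest for 9 of the 10 genes in 6 of the 7 groups that hold it, PDGF-BB libraries cluster at the top, and Cdc25b changes little outside PDGF-BB.

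Across the 9 groups, PDGF-BB had the highest mean for all 10 genes and its libraries did not overlap those of the next group for any of them. Below it, neighbouring groups in the order of means overlapped in every case but 3, which were 2 for Cdc25c and 1 for Ube2c. The lowest mean was that of the antisense controls of run 2 for Ccna2, Ccnb1, Plk1, Aurka and Cdc20, and that of long knockdown with or without angiotensin II for Ccnb2, Cdk1, Cdc25c and Ube2c. For Cdc25b the lowest was the untreated control of run 3.

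The level of these genes also differed between the labelled batches. In run 2, Ccnb1 had 8.20 and 6.60 CPM in the P17 and P18 plasmid controls and 42.1 CPM in P19. With overexpression it had 14.2 and 17.8 CPM in P17 and P18 and 54.2 in P19. For the 9 genes other than Cdc25b, P19 was the highest library in all 6 groups outside PDGF-BB that contain it. It stood 3.56 to 7.65 times above the mean of the other plasmid controls and 1.48 to 2.34 times above that of the other untreated controls of run 3. In untreated long knockdown the ratio was 2.42 to 12.2, largest for Ube2c. Under PDGF-BB it was 0.922 to 1.22 for the same 9 genes. A test of all batch terms together, after group means, called 10 of 10 genes in run 2 (33.2% of all genes tested) and 6 of 10 in run 3 (38.2%), with edgeR's quasi-likelihood test and Benjamini-Hochberg adjustment. The 6 were Ccna2, Ccnb1, Cdk1, Plk1, Aurka and Cdc20. In run 3, leaving out any P19 library other than the PDGF-BB one brought the count to 2 or 3. The antisense groups of run 2 hold no P19 library.

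The first comparison asks what PDGF-BB, a growth factor for smooth muscle, did to control cells. All 10 regulators rose, where 23.6% of all genes tested rose, and in each gene all 4 PDGF-BB libraries lay above all 4 controls (22.8% of all genes). The log2 fold change was 3.22 to 3.71 for 9 of them and 1.70 for Cdc25b. Over all genes tested the median was -0.02. Plk1 had the largest change and rose by 3.71 on the log2 scale (SE 0.366, adjusted p = 3.1e-07 by edgeR's quasi-likelihood test). Ccnb1 rose by 3.58 (SE 0.684, adjusted p = 0.000509) and Ccna2 by 3.55 (SE 0.635, adjusted p = 0.000285) on the log2 scale. Cdk1 rose by 3.22 (SE 0.368), Cdc25c by 3.62 (SE 0.416), Aurka by 3.44 (SE 0.429), Ccnb2 by 3.42 (SE 0.623), Cdc20 by 3.42 (SE 0.458) and Ube2c by 3.55 (SE 0.706). Cdc25b rose less, by 1.70 (SE 0.0967) (adjusted p = 7.91e-11). Within batches, the log2 difference was 2.59 to 4.37 for the other 9 genes and 1.60 to 1.88 for Cdc25b. Some marker sums moved too, without overlap between the groups: the 4 epithelial markers had at least 157 CPM under PDGF-BB against 97.6 to 129 in the controls, of which Cdh1 held 154 to 195 and 96.6 to 127. The 8 smooth muscle markers had 720 to 815 against 922 to 1140 CPM and the 6 endothelial markers 0.357 to 1.05 against 1.25 to 2.76. Their part in the result was not tested.

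The second question is what knockdown of long CASC15 did. In untreated cells, 9 of the 10 genes were lower with knockdown in each of the 4 batches (24.1% of all genes tested were lower in all 4), and Cdc25b was lower in P19 only. The summed level of the 4 epithelial markers was 36.6 to 70.0 CPM with knockdown against 97.6 to 129 in the controls. Cdh1 held 36.5 to 69.4 and 96.6 to 127 of it, and Epcam was at 0 in all 4 knockdown libraries. The part of these markers in the result was not tested. Without a batch term 1 gene, Cdc25c, fell (12.8% of all genes tested), and with the batch as a block 9 fell (20.6%), all but Cdc25b. Cdc25c fell by 2.02 on the log2 scale (SE 0.519, adjusted p = 0.00789 by edgeR's quasi-likelihood test), and it is the gene whose groups did not overlap (12.1% of all genes lay lower without overlap). Without a batch term the log2 fold change of Ccnb2 was -1.89 (SE 0.709, adjusted p = 0.0612 by the same test). That of Ube2c was -1.68 (SE 0.800, adjusted p = 0.138). With the block these were -1.99 (SE 0.553, adjusted p = 0.012) and -1.83 (SE 0.646, adjusted p = 0.0392). With the block Ccnb1 fell by 1.68 (SE 0.526), Ccna2 by 1.53 (SE 0.451), Aurka by 0.99 (SE 0.342), Cdk1 by 0.97 (SE 0.209), Cdc20 by 0.97 (SE 0.346) and Plk1 by 0.88 (SE 0.277). Cdc25b had a log2 fold change of 0.05 in either fit (SE 0.0966 and 0.0865). Without the P19 knockdown library alone, 9 genes were called with no batch term. Without batch P16 or P18 no gene was called with no batch term, and with the block the count was 2 without P16 or P18, 3 without P17 and 9 without P19.

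Under angiotensin II, a vasoactive peptide, the same 9 genes were lower with knockdown in every batch (25.7% of all genes tested). Ccnb1 had 9.94, 8.33, 13.1 and 26.5 CPM in the angiotensin II controls and 1.08, 1.30, 2.20 and 12.6 with knockdown. Plk1 had 3.99, 4.12, 5.78 and 8.63 CPM in those controls and 1.08, 1.30, 1.90 and 3.99 with knockdown, so its highest knockdown library and its lowest control are alike. The epithelial marker sum was 35.4 to 64.5 CPM with knockdown against 104 to 128 in the controls, with Epcam at 0 in all 4 knockdown libraries. The endothelial sum was 2.30 to 4.21 against 0.925 to 2.28, but its markers differed in direction. Vwf had 0.599 to 1.2 CPM with knockdown against 0 to 0.127, and Kdr 0.108 to 0.199 against 0.247 to 0.876. Pecam1, at 0.448 to 2.67 against 0.35 to 1.46, and Tek, at 0.349 to 0.411 against 0.123 to 0.701, overlapped. The part of these markers was not tested. Without a batch term 2 genes fell (13.3% of all genes tested fell), and with the block 9 fell (20.9%), again all but Cdc25b. The 2 were Cdc25c, by 2.13 on the log2 scale (SE 0.527, adjusted p = 0.00593), and Plk1, by 1.43 (SE 0.402, adjusted p = 0.0135), by edgeR's quasi-likelihood test. With the block Ccnb2 fell by 2.06 (SE 0.548), Ube2c by 2.07 (SE 0.670), Ccnb1 by 1.87 (SE 0.532), Ccna2 by 1.64 (SE 0.464), Cdc20 by 1.18 (SE 0.350), Aurka by 1.13 (SE 0.345) and Cdk1 by 1.07 (SE 0.215). Cdc25b had a log2 fold change of 0.04 with the block (SE 0.0876). Without the P19 knockdown library 9 genes were called with no batch term, without the P19 control or batch P17 1, and without batch P16 or P18 0. With the block the count was 4 without P16, 3 without P17 or P18 and 9 without P19.

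**Figure D3:**
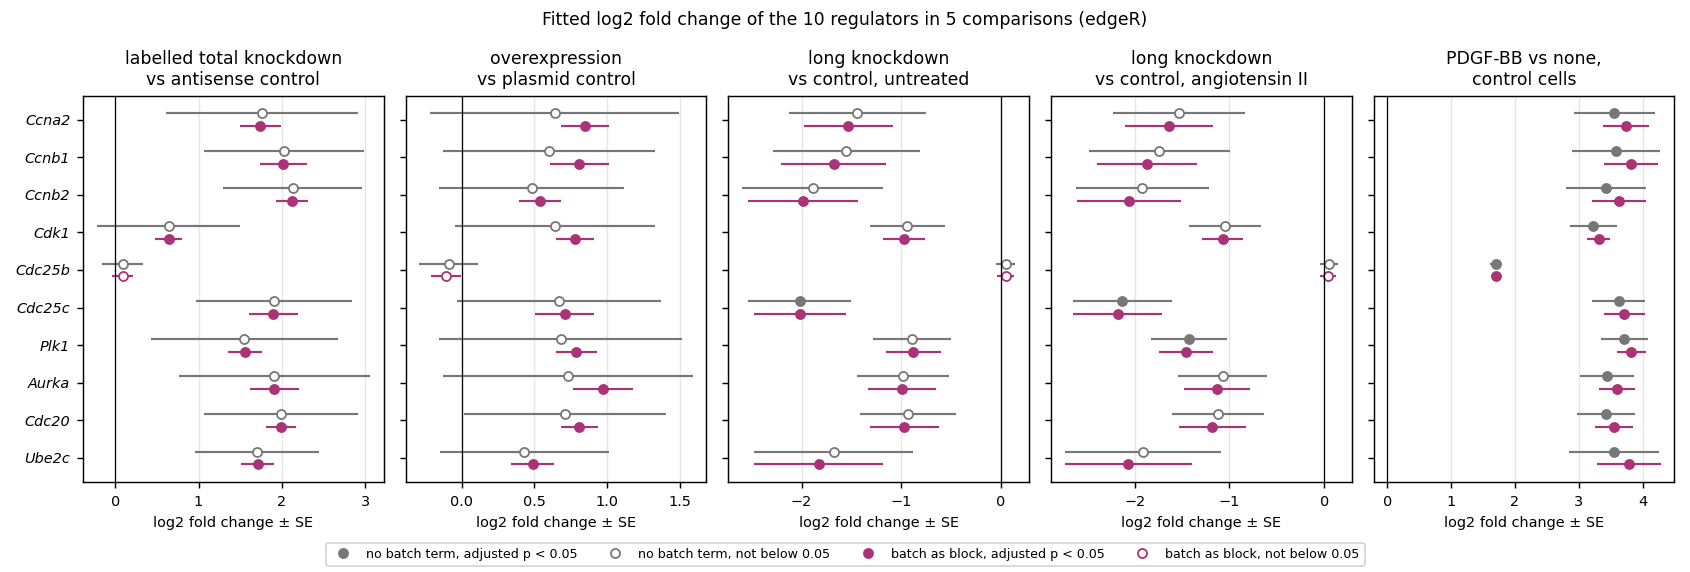
Fitted log2 fold change (points) with its standard error (bars) for each gene in 5 comparisons, without a batch term (grey) and with the batch as a block (purple); filled points have an adjusted p below 0.05. Cdc25b sits at 0.05 in untreated long knockdown and at 1.70 under PDGF-BB, apart from the other 9 genes in both.

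The size of the knockdown difference was not the same in all batches. In untreated cells the log2 difference of Ccnb1 was -3.20, -2.17, -2.18 and -0.75 in P16 to P19, and that of Ube2c was -3.26, -2.79, -2.89 and -0.69. Plk1 showed no such order, with -0.94, -0.37, -1.54 and -0.67. A term for P19 in both knockdown groups, with another for P19 under PDGF-BB, was added to the blocked fit after these values were seen. The knockdown difference was smaller in P19 for 7 of the 10 genes (5.22% of all genes tested had a positive term that was called): Ccna2, Ccnb1, Ccnb2, Cdc25c, Aurka, Cdc20 and Ube2c. For Ccnb1 the fitted knockdown effect was -2.66 in P16 to P18 and -0.91 in P19 on the log2 scale, a difference of 1.75 (SE 0.217, adjusted p = 1.9e-05 by edgeR's quasi-likelihood test). For Ube2c it was -3.35 and -0.82, and for Cdk1, which was not called, -1.15 and -0.78. The PDGF-BB effect was smaller in P19 for 6 genes (1.09% of all genes tested): Ccnb1, Ccnb2, Cdk1, Plk1, Aurka and Cdc20. For Ccnb1 it was 4.02 in P16 to P18 and 2.76 in P19. The P19 arm of PDGF-BB is 1 library, whose level was 0.922 to 1.22 times the mean of the other 3 for all genes but Cdc25b, while the P19 control was the highest control. P19 control libraries enter both terms, and both terms were prompted by these same values, so their p-values are no independent support. Without either P19 knockdown library the first count was 4, and without the untreated P19 control the second was 3.

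**Figure D4:**
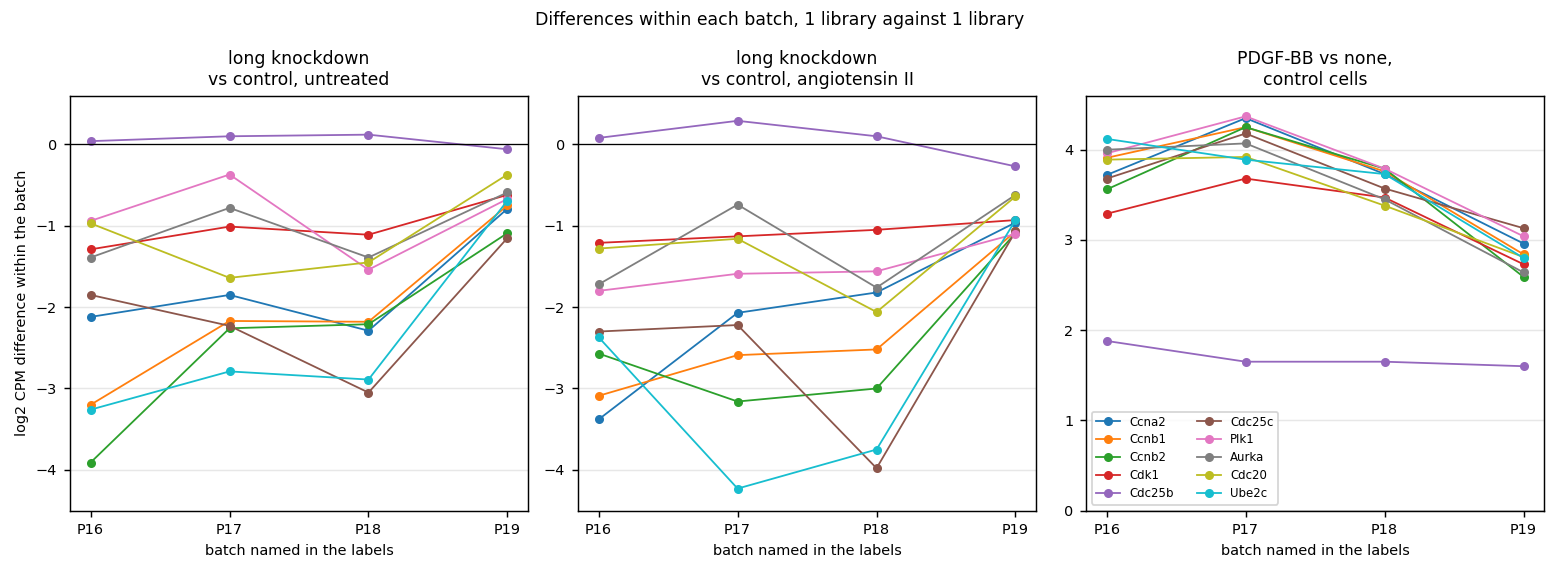
Log2 CPM of the treated or knockdown library minus that of the control library of the same batch, for each gene (lines), by batch. Every gene but Cdc25b lies below 0 in all 4 batches of both knockdown comparisons and nearest to 0 in P19 for most genes; under PDGF-BB all 10 lie above 0.

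Angiotensin II itself changed none of the 10 genes in control cells or in knockdown cells, and the interaction with knockdown changed none. No gene of the whole table was called in any of these 3 comparisons (0%), by edgeR's quasi-likelihood test with or without the block, while 156, 174 and 166 genes had an unadjusted p under 0.05 without the block. DESeq2 called 1, 0 and 1 genes in the 3 comparisons, none of them among the 10. In control cells the log2 fold changes ran from 0.00 for Ccna2 (SE 0.641) to 0.27 for Plk1 (SE 0.367). In knockdown cells they ran from -0.27 for Plk1 (SE 0.428) to 0.13 for Ccnb2 (SE 0.798). For the interaction the range was -0.54 for Plk1 (SE 0.564) to -0.01 for Cdc25b (SE 0.137). With standard errors of 0.620 to 0.669 for the B-type and A-type cyclins in control cells, a change of 1 on the log2 scale was not detectable at this spread. Plk1 and Aurka were higher with angiotensin II in all 4 batches of control cells, as were 6.09% of all genes tested.

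In run 2, the libraries labelled total knockdown were compared with their antisense controls. All 10 regulators were higher in both knockdown libraries than in both controls (26.6% of all genes tested). Ccnb1 had 4.05 and 3.16 CPM in the controls and 12.1 and 17.5 in the labelled knockdown, and Ube2c had 6.95 and 5.43 against 17.4 and 22.9. Without a batch term none of the 10 was called (1.50% of all genes rose) by edgeR's quasi-likelihood test, and 2 had an unadjusted p under 0.05. DESeq2 called 0 in this and in the other 3 comparisons of run 2, while edgeR with no filter on low counts, or fitted on only the groups compared, called 8, all higher. With the block 9 rose (8.76%), all but Cdc25b. Ccnb2 had the largest difference, a log2 fold change of 2.13 without the block (SE 0.833, adjusted p = 0.308) and 2.12 with it (SE 0.194, adjusted p = 8.78e-05), by edgeR's quasi-likelihood test. With the block Ccnb1 rose by 2.02 (SE 0.281), Cdc20 by 1.99 (SE 0.181), Aurka by 1.91 (SE 0.297), Cdc25c by 1.90 (SE 0.292), Ccna2 by 1.74 (SE 0.245), Ube2c by 1.71 (SE 0.195), Plk1 by 1.56 (SE 0.204) and Cdk1 by 0.64 (SE 0.166). Cdc25b had a log2 fold change of 0.09 (SE 0.127). The count with the block was 6 without P18 and 8 without P17, where each group keeps 1 library. The summed level of 6 leukocyte markers was 17.3 to 21.2 CPM in the labelled knockdown and at most 2.97 in every other group. Most of that was Cd68, with 15.6 and 15.9 CPM, and Csf1r had 1.25 to 4.52 CPM against at most 0.617 in any other group, while the defining marker Ptprc was at 0 in both libraries. The endothelial sum was 6.02 to 10.1 CPM against 2.80 to 3.90 in the controls. Most of it was Vwf (3.51 to 6.14 against 1.69 to 2.47 CPM) and Pecam1 (2.01 to 3.27 against 0.891 to 0.988). Tek had 0.301 to 0.493 against 0.0445 to 0.0494, but Kdr 0.0448 to 0.201 against 0.178 to 0.395. The defining marker Cdh5 had at most 0.0448 CPM. The epithelial sum was 72.6 to 95.4 CPM against 44.2 to 45.2 (nearly all Cdh1, with Epcam at 0) and the fibroblast sum 2640 to 2770 against 2950 to 2990. The part of these markers in the difference was not tested.

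The overexpression question sets total CASC15 against the control plasmid. Ccnb1 had 8.20, 6.60 and 42.1 CPM in the plasmid controls and 14.2, 17.8 and 54.2 with overexpression, so the groups overlap through P19. In all 3 batches 9 of the 10 genes were higher with overexpression (27.0% of all genes tested), and Cdc25b had log2 differences of 0.02, -0.43 and 0.06 in P17, P18 and P19. The epithelial marker sum, nearly all Cdh1, was 66.3 to 150 CPM with overexpression against 44.6 to 64.1, and its part was not tested. Without a batch term none was called (1.09% of all genes rose), and 0 passed an unadjusted p of 0.05. With no filter on low counts 2 were called, both higher. Blocked by batch, 9 rose (9.40%). With the block Aurka rose by 0.97 on the log2 scale (SE 0.206, adjusted p = 0.00884), Ccna2 by 0.85 (SE 0.167), Ccnb1 by 0.81 (SE 0.204), Cdc20 by 0.81 (SE 0.129), Plk1 by 0.79 (SE 0.139), Cdk1 by 0.78 (SE 0.129), Cdc25c by 0.71 (SE 0.203), Ccnb2 by 0.54 (SE 0.143) and Ube2c by 0.49 (SE 0.148), by edgeR's quasi-likelihood test. Cdc25b had a log2 fold change of -0.11 (SE 0.104). The count with the block was 3 without batch P17, 6 without P18 and 8 without P19, and 4 with no batch term without P19. Without the P19 overexpression library and with no batch term, the sign turned for all 9 of the higher genes, since P19 then remains in the controls only.

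The control plasmid was also compared with the antisense control, since they are the baselines of the other comparisons in run 2. Within P17 and P18, 8 of the 10 genes were higher with the plasmid (32.5% of all genes tested), all but Cdk1 and Cdc25b. The smooth muscle marker sum was 698 to 1220 CPM with the plasmid against 689 to 690 with the antisense control, and the leukocyte sum 0.991 to 1.59 against 0.668 to 0.840. The leukocyte markers were very low and of mixed direction. Csf1r had 0 to 0.0567 CPM against 0.134 to 0.148, and Ptprc 0.055 to 0.0901 against 0. Cd68, at 0.397 to 0.99 against 0.267 to 0.593, and Lyz2, at 0 to 0.964 against 0.0494 to 0.178, overlapped. The part of these markers was not tested. None was called without a batch term (1.15% of all genes rose), though 8 had an unadjusted p under 0.05 and 9 were called, all higher, with no filter on low counts, and 6 rose with the block (2.36%): Ccna2, Ccnb2, Cdc25c, Plk1, Cdc20 and Ube2c. Cdc20 rose by 1.35 on the log2 scale (SE 0.180, adjusted p = 0.00138 by edgeR's quasi-likelihood test) and Ube2c by 0.91 (SE 0.192). Ccna2 rose by 1.34 (SE 0.243), Plk1 by 1.29 (SE 0.2), Cdc25c by 1.26 (SE 0.292) and Ccnb2 by 1.18 (SE 0.194). Not called were Ccnb1 at 1.2 (SE 0.282), Aurka at 1.08 (SE 0.301), Cdk1 at 0.18 (SE 0.163) and Cdc25b at 0.08 (SE 0.121). Without batch P17 or P18 the count with the block was 1. Without the block the log2 fold changes of Cdc20 and Ube2c were 2.43 (SE 0.884) and 1.74 (SE 0.705). Fits without a batch term also set the P19 plasmid library against antisense controls that hold no P19 library. That library stood 3.56 to 7.65 times above the mean of the other plasmid controls for the genes other than Cdc25b. Plasmid and batch therefore cannot be told apart in the unblocked values. The difference between the labelled total knockdown effect and the overexpression effect was positive for Ccnb2 at 1.58 (SE 0.241), Ube2c at 1.22 (SE 0.244) and Cdc20 at 1.18 (SE 0.223) with the block, which was called for these 3 genes (5.82% of all genes had a positive difference called) and for 1 without batch P18. Without the block none was called (0.808%) and 0 had an unadjusted p under 0.05, while 4 were called with no filter on low counts. For Cdk1 it was 0.01 without the block (SE 1.06) and -0.13 with it (SE 0.211). With the block it was 1.21 for Ccnb1 (SE 0.348), 1.19 for Cdc25c (SE 0.357) and 0.93 for Aurka (SE 0.364). It was 0.89 for Ccna2 (SE 0.298), 0.78 for Plk1 (SE 0.248) and 0.2 for Cdc25b (SE 0.164), and none of these was called.

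Of 48 other genes of mitotic entry and exit, 47 were tested in each run (Lin54 was not). Under PDGF-BB 37 of them rose and 1 fell (23.6% and 20.0% of all genes tested), and their median log2 fold change was 1.04, against 3.50 for the 10 regulators. All 8 Aurora and Polo kinase partners rose, among them Tpx2 and Birc5, with a median of 3.16. Of the 15 APC/C subunits and Ube2s, 9 rose, with a median of 0.27. Foxm1, a transcription factor of G2 and M phase genes, rose by 2.96 on the log2 scale (SE 0.253). Fbxo5, which inhibits the APC/C, rose by 2.62 (SE 0.139), Wee1, which inhibits Cdk1, by 1.51 (SE 0.142) and Fzr1, the APC/C activator of late mitosis and G1, by 0.68 (SE 0.0900). Pttg1, securin, was the gene that fell, by 0.27 (SE 0.0867, adjusted p = 0.0162 by edgeR's quasi-likelihood test).

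With long knockdown in untreated cells, 3 of the 47 fell and 7 rose without a batch term (12.8% and 12.3% of all genes tested), and 14 fell and 9 rose with the block (20.6% and 20.0%), around a median of -0.05. Of the 15 APC/C subunits and Ube2s, 5 rose and 1 fell without the block, and 7 rose and 2 fell with it, and those shares of all genes apply here too. None of the 8 Aurora and Polo kinase partners was called without the block, and 4 fell with it (20.6% of all genes tested), around a median of -1.01. Foxm1 fell by 1.10 on the log2 scale (SE 0.262, adjusted p = 0.0048 by edgeR's quasi-likelihood test). Fbxo5 had a log2 fold change of -0.03 (SE 0.141), Wee1 of 0.26 (SE 0.143), Fzr1 of 0.02 (SE 0.0904) and Pttg1 of 0.20 (SE 0.0859), and none of these was called. Under angiotensin II, 6 of the 47 fell and 9 rose with knockdown (13.3% and 13.4% of all genes tested), and 17 and 10 with the block (20.9% and 20.4%). With the block 8 of the 15 APC/C subunits and Ube2s rose and 2 fell, and 6 of the 8 kinase partners fell, against the same shares. Foxm1 fell by 1.01 (SE 0.261, adjusted p = 0.00825). The untreated and angiotensin II comparisons have separate controls and separate knockdown libraries.

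In run 2 none of the 47 was called without a batch term. With the block, 15 rose and 2 fell in the labelled total knockdown (8.76% and 5.63% of all genes tested), and 9 rose and 1 fell with overexpression (9.40% and 8.33%). With the block 7 of the 8 Aurora and Polo kinase partners rose in the labelled total knockdown and 6 rose with overexpression, against the same shares. Foxm1 rose by 1.12 on the log2 scale in the labelled knockdown (adjusted p = 0.000508 by edgeR's quasi-likelihood test) and by 0.54 with overexpression (adjusted p = 0.00642). Fbxo5 rose by 1.31 in the labelled knockdown (adjusted p = 0.00112) and had a log2 fold change of 0.47 with overexpression (adjusted p = 0.0536). Wee1, Fzr1 and Pttg1 were not called in either comparison. With the block Pttg1 had a log2 fold change of -0.85 (SE 0.267) in the labelled knockdown and 0.66 (SE 0.201) with overexpression. The difference of these 2 effects was called for Pttg1 with the block, at -1.5 (SE 0.334, adjusted p = 0.0321 by edgeR's quasi-likelihood test).

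**Figure D5:**
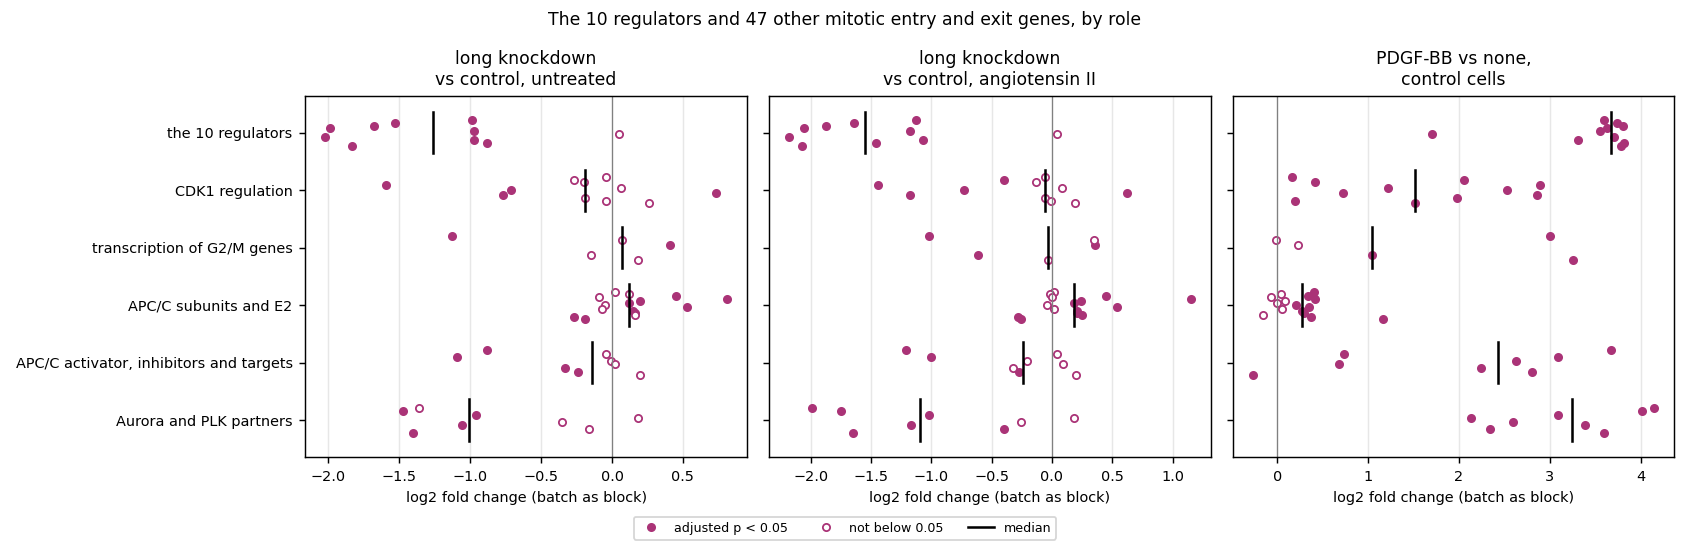
Log2 fold change with the batch as a block for the 10 regulators and 47 other genes of mitotic entry and exit, in rows by role, with the median of each row as a bar; filled points have an adjusted p below 0.05. Under PDGF-BB the Aurora and Polo kinase partners lie near the 10 regulators, and the APC/C subunits and Ube2s lie lower, around a median of 0.27.

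The 10 genes followed each other closely over the libraries, with 1 exception. Over the 20 libraries of run 3, the correlation of a gene's log2 CPM with the mean of the other 9 was 0.967 to 0.990 for all but Cdc25b, for which it was 0.809. Over the 16 libraries without PDGF-BB it was 0.926 to 0.987 for the 9 and -0.427 for Cdc25b. Over the 10 libraries of run 2 it was 0.945 to 0.991 and 0.713. The genes most like the mean of the 10 over the 20 libraries of run 3, among 12155 candidates, were Tpx2 (r = 0.998), Top2a (0.998), Kif23 (0.998), Kif20a (0.997) and Prc1 (0.996). Tpx2 activates Aurka on the spindle, Top2a untangles DNA, and Kif23, Kif20a and Prc1 build the central spindle. Their correlations over the 10 libraries of run 2 were 0.987, 0.964, 0.986, 0.988 and 0.978. The points of these correlations share groups and batches, and genes are not independent of each other, so they are descriptions.

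Some of the counts could be shared with other genes. Of the 10 regulators, 6 overlap a gene on the opposite strand in GENCODE M21, and whether the counting used strand is not given in the sources used here. The most abundant of these neighbours were Elovl1 beside Cdc20, with up to 1124 counts in a library, Exosc9 beside Ccna2, with up to 762, and Spef1 beside Cdc25b, with up to 257. The pseudogenes Ccnb1-ps and Ccnb2-ps had at most 6 and 12 counts in any library.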

How the data were processed

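The deposited values are gene-level expected counts, 1 column per library, which the authors made with tools that include STAR 2.7.11b and RSEM 1.3.1, per the submitters' processing notes. These notes also name GRCm39 and mm10, without a role, and the annotation and strand setting are not given in the sources used here. Symbols were matched by Ensembl identifier for 51486 of 78334 identifiers, which held 98.7% of counts, and exon lengths from GENCODE M21. Expected counts were rounded, filtered with filterByExpr (minimum count 10, minimum total 15) and scaled by TMM per run. Each run had 1 fit over all its groups, by the robust quasi-likelihood model of edgeR 4.0.16 (R 4.3.3). A gene was called at a two-sided adjusted p below 0.05, with Benjamini-Hochberg adjustment over all genes tested. Standard errors are the log2 fold change divided by the root of F. CPM values use TMM factors (other than for 2610307P16Rik, scaled by total counts), and log2 CPM a prior count of 2. The tests were also tried on simulated data.

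The fit had no batch term. Because the labels name the batch that same-numbered libraries share, a fit with it as a block is given beside it: after removing group means, same-batch libraries correlated at 0.168 to 0.499 on average across genes in run 2 and at 0.184 to 0.333 in run 3, and other pairs at -0.253 to -0.056. Removing group means makes the other pairs negative whenever the same-batch pairs are positive, so their values add no separate support for a block. The block lowered the common biological coefficient of variation from 0.232 to 0.103 (run 2) and from 0.148 to 0.0848 (run 3). Alternatives were DESeq2 1.42.0, RLE scaling, fits of only the groups compared, a filter at mean CPM 1, no filter, CPM by total counts, and leaving out each library or batch, where a group left with 1 library was taken to vary like the others. Members and gene lists were chosen with earlier results of these data known. The named genes are the 10 members in every comparison (for angiotensin II the lowest and highest), 5 pathway genes by role (Foxm1, Fbxo5, Wee1, Fzr1 and Pttg1) and the 5 genes most like their mean in run 3. The P19 terms were added after the data were seen.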

Additional observations from a re-analysis of the deposited data

Results flagged for a closer look

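In 12 of 50 gene and group combinations with 4 libraries, the P19 library stood apart from the other 3, where chance gives about 1 in 20 for a single group. Since 9 of the genes follow each other over the libraries, the 50 combinations are not independent and the count is not a test. The measure is the gap to the nearest library as a share of the whole range, and values above 0.829 stand apart. In untreated long knockdown it was 0.935 for Ccna2 (10.2 CPM), 0.881 for Ccnb1 (12.7 CPM), 0.864 for Ccnb2 (5.63 CPM), 0.948 for Cdk1 (15.9 CPM), 0.864 for Aurka (4.67 CPM) and 0.959 for Ube2c (5.57 CPM). In long knockdown with angiotensin II it was 0.903 for Ccnb1 (12.6 CPM), 0.954 for Ccnb2 (6.13 CPM), 0.841 for Cdc20 (8.37 CPM) and 0.859 for Ube2c (4.78 CPM). It was also 0.846 for Ube2c in the untreated controls (9.07 CPM) and 0.955 for Cdk1 under PDGF-BB (163 CPM). In all 12 the P19 library was the highest.

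The long knockdown effect differed between P19 and the other batches by a test of the difference itself, chosen after the data were seen. On the log2 scale the difference was 1.35 for Ccna2, 1.75 for Ccnb1, 1.89 for Ccnb2, 1.72 for Cdc25c, 0.73 for Aurka, 0.93 for Cdc20 and 2.53 for Ube2c. For PDGF-BB it was -1.25 for Ccnb1, -1.20 for Ccnb2, -0.73 for Cdk1, -0.97 for Plk1, -1.11 for Aurka and -0.90 for Cdc20. Both sets of differences use the untreated P19 control, and each batch holds 1 library per group. The terms were prompted by these values and are no independent support.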

How the results depend on the processing

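With the batch as a replicate block they were 9 for the labelled total knockdown, 9 for overexpression, 6 for plasmid against antisense control, 3 for the difference of the effects and 9 for long knockdown in both arms; the block changed no other call count. With no filter on low counts the run 2 counts were 8, 2, 9 and 4, with only the groups compared the labelled total knockdown gave 8, and with a mean CPM of at least 1 long knockdown under angiotensin II gave 4. DESeq2 gave an adjusted p for 6 of the 10 genes under PDGF-BB and called all 6.

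Leaving out 1 library or batch, with and without the block, gave 0 to 8 for the labelled total knockdown, 0 to 8 for overexpression, 0 to 6 for plasmid against antisense control, 0 to 3 for the difference of the effects, 0 to 9 for long knockdown in each arm, 9 to 10 for batch in run 2, 2 to 9 for batch in run 3, 10 to 10 for PDGF-BB, 4 to 7 for P19 by long knockdown and 3 to 8 for P19 by PDGF-BB.

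Of 76 fold changes of single genes, 21 changed sign with 1 library or batch left out. For overexpression the log2 fold change ran from -0.49 to 2.26 (Ccna2), -0.25 to 1.96 (Ccnb1), -0.35 to 1.48 (Ccnb2), -0.22 to 1.84 (Cdk1), -0.36 to 0.0547 (Cdc25b), -0.30 to 1.76 (Cdc25c), -0.50 to 2.13 (Plk1), -0.38 to 2.42 (Aurka), -0.22 to 1.88 (Cdc20) and -0.30 to 1.32 (Ube2c), each lowest without the P19 overexpression library and highest without the P19 plasmid control. For the difference of the run 2 effects it ran from -0.50 to 2.24 (Ccna2), -1.20 to 0.86 (Cdk1), -0.58 to 2.04 (Plk1) and -0.51 to 2.28 (Aurka), and for Cdc25b between the run 2 controls from -0.0537 to 0.42. In run 3, Cdc25b ran from -0.0469 to 0.15 for long knockdown under angiotensin II and from -0.0859 to 0.0734 for the interaction. The angiotensin II change ran in controls from -0.46 to 0.44 (Ccna2) and -0.0224 to 0.61 (Plk1), and in knockdown cells from -0.80 to 0.16 (Plk1) and -1.34 to 1.56 (Ccnb2). With the replicate block Cdk1 turned to -0.13 for the difference of the run 2 effects. With no filter, Ccna2 turned to -0.0109 under angiotensin II in controls and Cdc25b to 0.00962 for the interaction. Apart from signs set by which P19 library was left out, the cause was not tested. Low counts limit Ube2c, Ccnb2 and Cdc25c in long knockdown.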
